A study of Arabidopsis thaliana with 6 samples.

Results

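The genes described here encode proteins of the cytosolic ribosome of Arabidopsis thaliana, the ribosome that translates nuclear messages outside the chloroplast and the mitochondrion. They were a list of 56 gene identifiers, 31 for proteins of the large subunit (RPL and RPP genes) and 25 for proteins of the small subunit (RPS genes), looked up in a table of 20754 genes. The table gives gene identifiers, and the gene names used here follow the usual Arabidopsis naming of these families. All 56 were present and 0 were absent. They come from 34 protein families and lie on all nuclear chromosomes, with 12, 13, 13, 6 and 12 genes on chromosomes 1 to 5. A list of 167 further cytosolic ribosomal protein genes, of which 156 were in the table, served for comparison.

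Rosette leaves of the *fer* mutant (3 libraries) were set against rosette leaves of the wild type (WT, 3 libraries), and the submitters describe the 3 libraries of each genotype as biological replicates. The mutant is *fer-4*, a loss-of-function T-DNA insertion line of FERONIA (FER), a receptor kinase at the plasma membrane that affects growth and stress responses, and the wild type is Columbia-0. Both genotypes were untreated and, by the labels, 4 weeks old, after 10 days on plates in constant light and 21 days on soil with 8 h of light a day, whereas the study's text gives long days and a somewhat later age. RNA was profiled by QuantSeq, which sequences the tail-proximal stretch of a message once, so that read numbers need no division by gene length. Since *fer* rosettes are smaller than WT rosettes at this age, the comparison is between leaves of plants that also differ in size.

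A ribosome holds a single copy of nearly every ribosomal protein, so that a growing cell has to make many proteins in matched amounts. In plants each of these proteins is encoded by a small family of near-identical genes, called paralogs, and losing a single paralog often gives narrow pointed leaves and slow growth. The transcripts are among the most abundant of the leaf, and the kinase TOR, which senses nutrients, acts on the ribosome partly through S6 kinases that phosphorylate the small subunit protein RPS6.

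The values are normalized reads, and every library summed to between 4523902 and 4526129 of them. FER itself had 5.95, 6.63 and 10.3 normalized reads in *fer* leaves, against 264.6, 265.5 and 286.4 in WT leaves. The genotypes did not overlap, the log2 fold change was −5.02 ± 0.22 (SE; limma, Benjamini-Hochberg adjusted p = 7.2e-12), and no library went against its label. Of the leaf marker list, 6 of 6 genes of Rubisco and related photosynthesis proteins fell in *fer*, and their summed share of the reads was 2.03% to 2.38% in *fer*, against 3.05% to 3.12% in WT. All 5 genes of the senescence list rose, with sums of 587 to 693 normalized reads in *fer* and of 193 to 242 in WT. SAG12, the marker most tied to senescing leaves, had 25.3 to 48.2 normalized reads in *fer* and at most 0.39 in WT, where it was listed at 0 in 1 library. Of 12 genes of dividing cells, limma called 0 (0 at an unadjusted p under 0.05), beside 14.6% (27.1%) of all genes. These 12 summed to 641 to 750 in *fer* and 628 to 760 in WT. Root and flower markers summed to at most 10.5 normalized reads in any library, and AG, a flower organ gene, was listed at 0 in 1 *fer* library and had at most 3.40 in WT. In leaf tissue of mixed cells, fewer cells of a type and less RNA per cell cannot be told apart, and the part of leaf age in the results below was not tested.

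The ribosomal protein genes were highly expressed in *fer* and in WT leaves, and their summed share of the reads hardly differed between genotypes. Together the 56 genes took 1.73%, 1.78% and 1.75% of all normalized reads in *fer*, against 1.73%, 1.79% and 1.68% in WT. The libraries overlapped, with means of 1.75% ± 0.02 in *fer* and 1.73% ± 0.06 in WT (SD, n = 3 each), and the ratio of the summed reads was 1.01. This ratio depends on the scaling of the libraries, since the median of all genes was itself 0.10 log2 higher in *fer* than in WT. Under median of ratios scaling, which sets the libraries level at the median gene, the 56 genes summed to 76368, 76835 and 76168 in *fer*, against 80669, 84466 and 78882 in WT. On that scale every *fer* library was below every WT library and the ratio was 0.94, so that relative to the median gene the summed level was lower in *fer*. The large subunit genes gave 0.962% ± 0.021 in *fer* and 0.953% ± 0.023 in WT, and the small subunit genes 0.788% ± 0.005 in *fer* and 0.781% ± 0.034 in WT. The lowest sum was that of WT column 3, in which the median ribosomal protein gene lay 0.07 below its mean over the libraries on the log2 scale. Mean levels ranged from 39.4 for RPS9C to 4305 for RPL3A, with a median of 1321 normalized reads over the 56 genes and of 42.8 over all genes. In all, 34 of the 56 had over 1000, and 55 were above the median gene of the table.

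These genes had smaller errors than most, and they were also far higher in level, with a median of 1321 normalized reads beside 42.8. The fit let the variance follow the level, and no genes of like level were compared. The contrasts below may therefore reflect the level of the genes, which was not tested. The median standard error of the log2 fold change was 0.079 over the 56 genes and 0.238 over all genes. The 95% interval of the change lay wholly within ±0.5 log2 for 52 of the 56 genes (92.9%), against 21.2% of all genes. The exceptions were RPL7D, RPL11A, RPS4D and RPS9C. All 56 point estimates were under 0.5 in size, where 70.5% of all genes and 98.7% of the 156 other cytosolic ribosomal protein genes were. The range of the changes was −0.28 for RPL19B to 0.41 for RPL7D.

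**Figure D1:**
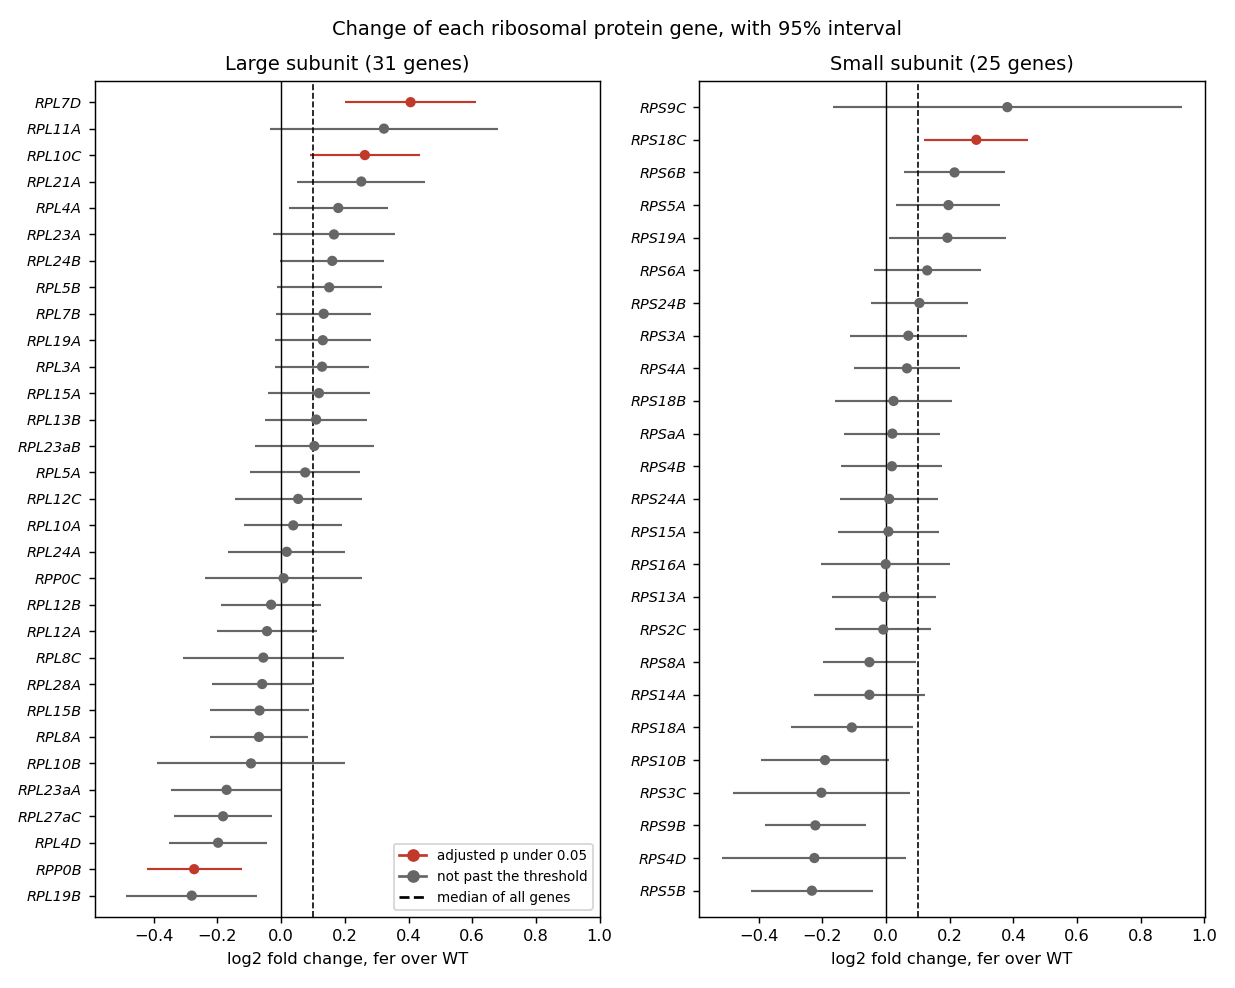
Log2 fold change of *fer* over WT (horizontal axis) for the 31 large subunit genes and the 25 small subunit genes, each with its 95% interval from limma over 3 libraries per genotype. All points lie between −0.28 and 0.41, and the 4 red points (RPL7D, RPL10C, RPS18C and RPP0B) passed an adjusted p of 0.05.

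At an adjusted p under 0.05, 3 of the 56 genes rose in *fer* (RPL7D, RPL10C and RPS18C) and 1 fell (RPP0B). Over all genes 14.6% were called, 10.0% as higher and 4.52% as lower. At an unadjusted p under 0.05 there were 14 ribosomal protein genes, beside 27.1% of all genes. The *fer* and WT libraries did not overlap for 16 genes that were higher in *fer* and 7 that were lower, beside 20.8% and 10.5% of all genes, and under median of ratios scaling for 3 that were higher and 17 that were lower, beside 3164 (15.2%) and 3110 of all 20754 genes tested. The log2 fold change was under 0 for 23 of the 56, beside 40.0% of all genes. The median log2 fold change was 0.02 (0.05 for the large and 0.01 for the small subunit), the median over all genes was 0.10, and 35 of the 56 lay under that median. Under median of ratios scaling, which moves the median of all genes to 0.00, the median of the 56 genes was −0.08 and the calls were 1 gene higher (RPL7D) and 8 lower (RPL4D, RPL19B, RPL23aA, RPL27aC, RPP0B, RPS5B, RPS9B and RPS10B), beside 7.28% higher and 7.03% lower of all genes (14.3% in all). Quantile scaling gave 2 higher (RPL7D and RPS18C) and 3 lower (RPL19B, RPP0B and RPS5B), beside 6.52% higher and 6.99% lower of all genes (13.5% in all). Without a trend of the variance on the level, limma called 0 of the 56, with 2 at an unadjusted p under 0.05, beside 5.44% of all genes called (4.38% higher, 1.07% lower). Leaving out *fer* column 3 also left 0 calls (9 at an unadjusted p under 0.05), beside 9.19% of all genes called in that fit. Leaving out *fer* column 1 or WT column 2 left RPL7D alone, beside 10.5% and 9.51% of all genes.

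RPL7D (AT3G13580, chr3:4433047-4435305 of TAIR10.1, plus strand) encodes a form of the large subunit protein L7. It had 496, 515 and 533 normalized reads in *fer*, against 355, 376 and 437 in WT. Every *fer* library was above every WT library. The log2 fold change was 0.41 ± 0.10 (SE), or 32.2% more reads on the means (limma, adjusted p = 0.008). It was called in 5 of 6 fits that left out 1 library, all but that without *fer* column 3, with adjusted p from 0.0038 to 0.057, and under both other scalings. Its paralog RPL7B (AT2G01250), the more abundant L7 gene, had 2413, 2519 and 2467 in *fer*, against 2170, 2348 and 2229 in WT. These libraries did not overlap either, but the log2 fold change of 0.13 ± 0.07 missed the threshold (limma, adjusted p = 0.24).

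RPS18C (AT4G09800, chr4:6173712-6175200, plus strand) encodes S18, a protein of the head of the small subunit at its contact with the large subunit. It had 1203, 1118 and 1210 normalized reads in *fer*, against 972, 984 and 944 in WT. The genotypes did not overlap, and the log2 fold change was 0.28 ± 0.08 (limma, adjusted p = 0.018). It was called in 2 of 6 fits without 1 library (without WT column 1 or *fer* column 2) and not under median of ratios scaling (limma, adjusted p = 0.14). The annotated 3′ end of RPS18C shares 25 bases with that of AT4G09810 on the other strand, a gene with means of 31.1 in *fer* and 20.7 in WT, and the sources used here do not say if reads were counted by strand. Its paralogs RPS18A (AT1G22780) and RPS18B (AT1G34030) were not called. RPS18A, whose loss gives the pointed first leaves phenotype, had 605, 587 and 638 in *fer*, against 709, 675 and 592 in WT. RPS18B had 1269, 1396 and 1201 in *fer*, against 1138, 1350 and 1318 in WT. Both overlapped between genotypes, with log2 fold changes of −0.11 ± 0.09 and 0.02 ± 0.09 (limma, adjusted p = 0.49 and 0.90).

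RPL10C (AT1G66580, chr1:24839090-24840806, plus strand), also known as the senescence-associated gene SAG24, encodes L10, a protein that, in yeast, joins the large subunit late in its assembly. It had 949, 911 and 962 normalized reads in *fer*, against 842, 775 and 738 in WT. No library of one genotype reached into the other, and the log2 fold change was 0.26 ± 0.08 (limma, adjusted p = 0.039). The call was lost in 4 of the 6 fits without 1 library, those without WT column 2, WT column 3, *fer* column 1 or *fer* column 3, and under median of ratios scaling (limma, adjusted p = 0.23). The senescence markers rose in the same libraries, and their part in the change of RPL10C was not tested. RPL10A, the most abundant L10 gene, had log2 fold change 0.04 ± 0.07 (adjusted p = 0.79 in limma). RPL10B (AT1G26910) was low, with 102, 122 and 103 in *fer*, against 111, 120 and 118 in WT. Its genotypes overlapped.

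RPP0B (AT3G09200, chr3:2823088-2825241, minus strand) was the only 1 of the 56 called lower in *fer* in the fit to all genes as deposited. It encodes P0, which anchors the acidic proteins P1 and P2, and in plants also P3, in the stalk of the large subunit, where translation factors dock. RPP0B had 3240, 3396 and 3274 normalized reads in *fer*, against 3973, 4225 and 3787 in WT. Every *fer* library was below every WT library, the log2 fold change was −0.27 ± 0.07, and the mean was 17.3% lower (limma, adjusted p = 0.013). The call was lost when *fer* column 1, *fer* column 3 or WT column 2 was left out and kept in the other 3 such fits (adjusted p from 0.0095 to 0.098), and it was kept under both other scalings. RPP0C (AT3G11250) had 270, 328 and 244 in *fer*, against 279, 293 and 260 in WT, with overlap and a log2 fold change of 0.01 ± 0.12. RPP0B made up 91.2% to 93.1% of the reads of the RPP0B and RPP0C pair in *fer* and 93.4% to 93.6% in WT. The P0 family as a whole, RPP0A included, was 15.9% lower in *fer*.

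Because of RPP0B, the other genes of the stalk were looked up after its value had been seen, and they are given as a description. Of the 12 stalk genes P0 to P3 in the table, RPP0B included, 4 fell and 0 rose in *fer*, where 4.52% of all genes fell and 10.0% rose, and the median log2 fold change was −0.11, beside 0.10 over all genes. RPP3A, for the plant-specific P3, had 988, 1082 and 1025 normalized reads in *fer*, against 1337, 1447 and 1367 in WT, and a log2 fold change of −0.42 ± 0.08 (limma, adjusted p = 0.0008). RPP1B had 990, 1030 and 901 in *fer*, against 1269, 1394 and 1089 in WT, and a log2 fold change of −0.36 ± 0.09 (limma, adjusted p = 0.013). RPP2B had 4182, 4681 and 4227 in *fer*, against 4878, 5058 and 5537 in WT, and a log2 fold change of −0.24 ± 0.08 (limma, adjusted p = 0.037). None of these overlapped between genotypes. RPP3A was called in all 6 fits without 1 library, while the calls of RPP1B and RPP2B were lost in some of them (limma, highest adjusted p = 0.11 and 0.16). RPP1A and RPP2A, abundant paralogs, had log2 fold changes of −0.0019 and −0.06 and were not called. The genes of L12, which sits at the base of the stalk, stayed uncalled, with log2 fold changes of −0.04 for RPL12A, −0.03 for RPL12B and 0.05 for RPL12C.

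**Figure D2:**
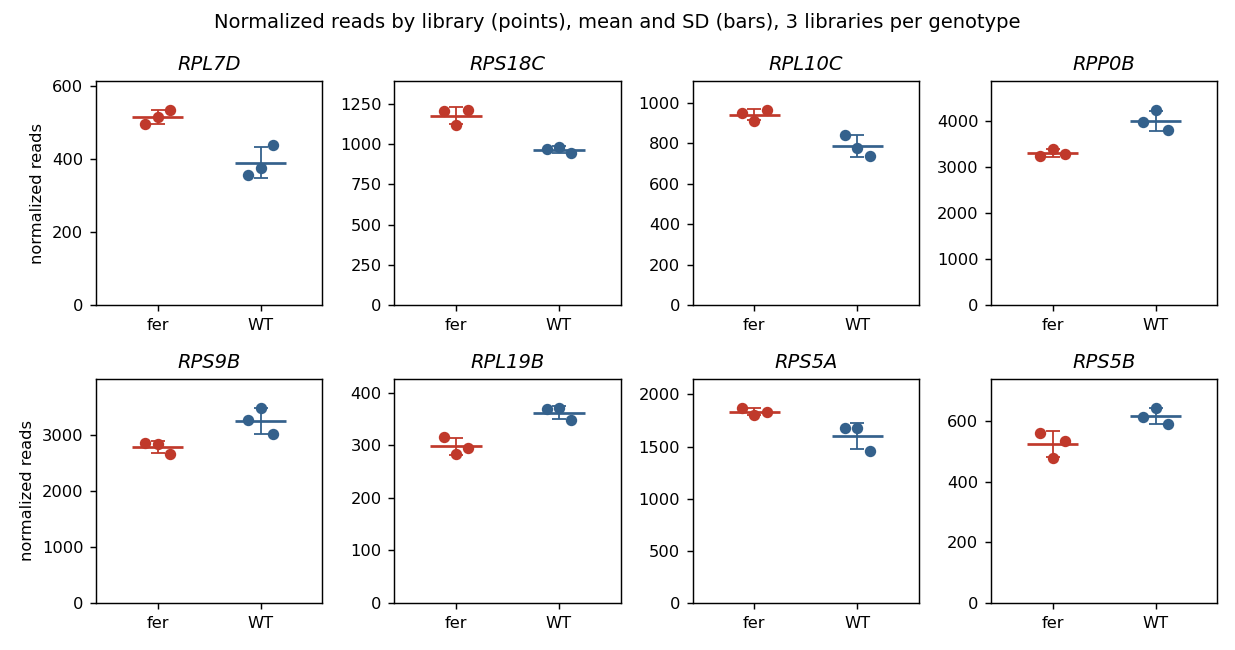
Normalized reads (vertical axis, from 0) of 8 ribosomal protein genes in the 3 *fer* libraries (left) and the 3 WT libraries (right), with mean and SD. RPL7D, RPS18C, RPL10C and RPS5A lie higher in *fer* and RPP0B, RPS9B, RPL19B and RPS5B lie lower, with no overlap in any of the 8; only RPL7D, RPS18C, RPL10C and RPP0B passed the adjusted threshold.

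Promoters of ribosomal protein genes are known for 2 short elements, the telo-box, which resembles the repeat of plant telomeres, and site II, bound by TCP transcription factors. The window from 250 bases before to 50 bases after each annotated gene start (RefSeq, TAIR10.1) was searched on both strands for AAACCCTA (telo-box) and for TGGGCC or TGGGCT (site II). A telo-box was found for 31 of the 56 genes (55.4%) and for 5.71% of the promoters of all genes in the table. Site II was found for 45 (80.4%), against 25.2% of all promoters, and both for 26 (46.4%), against 2.50%. The following windows of 30 bases are read 5′ to 3′ along the gene's own strand, with a single element per gene in capitals. The RPS5A window also holds a site II on the reverse strand, which overlaps the telo-box and is not marked. Windows are given for 2 called genes (RPP0B and RPL10C) and for 2 genes whose ratio to a paralog did not overlap between genotypes (RPS5A and RPL19B).
RPP0B, site II (chr3:2825242-2825271, minus strand): ctttactggttaaaTGGGCCtaatttgtga
RPL10C, site II (chr1:24839060-24839089, plus strand): agtatcaaataatatctaaaTGGGCCtagc
RPS5A, telo-box (chr3:3779546-3779575, minus strand): cagctccattagagcccAAACCCTAaattt
RPL19B, site II on the reverse strand (chr3:5708764-5708793, plus strand): gggccaaagtaGGCCCAtttataaagcgaa
RPP0B, which fell, and RPL10C, which rose, carry the same site II letters. In the whole search window RPP0B held 2 site II matches and RPL10C held 1. RPL10C also held 1 telo-box, after its gene start and not shown here, and RPP0B held 0. RPS18C, which rose, held 1 telo-box, within the bases after its gene start and not shown here, and no site II. RPL7D, which rose, and RPS5B, which was lower without passing the threshold, held neither element in the window. Among 14 genes for ribosome assembly factors the telo-box was found in 71.4% and site II in 92.9%, and among 37 genes of the plastid ribosome in 10.8% and 48.6%. A match here is a match of letters and says nothing of binding.

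Of the genes among the 56 for the messenger entry site of the small subunit, 0 passed the threshold as deposited, beside 14.6% of all genes. Other genes of these families, such as RPS3B, RPS2A and RPS2D, are not described here. RPS3A and RPS3C together made up 44.9% of the reads of the S3 family in *fer* and 48.5% in WT. RPS9B (AT5G15200), whose protein S9 lines the entry of the messenger, had 2856, 2836 and 2648 normalized reads in *fer*, against 3254, 3476 and 3008 in WT. The libraries did not overlap, but the log2 fold change of −0.22 ± 0.08 just missed the threshold (limma, adjusted p = 0.055). RPS9B was called lower under median of ratios scaling, for genes averaging 5 or more and without WT column 3 (limma, adjusted p = 0.0062, 0.048 and 0.025). It was not called in the other fits. RPS9C (AT5G39850), the lowest of the 56 genes, had 47.0, 30.7 and 57.5 in *fer*, against 37.7, 26.2 and 37.3 in WT. Its log2 fold change of 0.38 ± 0.26 had the largest standard error of the 56 and the genotypes overlapped. RPS3C (AT5G35530), for the entry site protein S3, had 494, 325 and 502 in *fer*, against 532, 505 and 457 in WT, and RPS4D (AT5G58420), for the small subunit protein S4, had 806, 500 and 766 in *fer*, against 813, 880 and 688 in WT. In both genes *fer* column 2 stood well below the other *fer* libraries. Without it, the log2 fold change of RPS3C was 0.00 and that of RPS4D −0.01, beside −0.20 and −0.22 with it. RPS2C and RPS3A had log2 fold changes of −0.01 and 0.07.

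RPS5A (AT3G11940) and RPS5B (AT2G37270), for the head protein S5, pointed in opposite directions. RPS5A, known for high activity in dividing cells, had 1870, 1800 and 1829 normalized reads in *fer*, against 1673, 1676 and 1459 in WT. RPS5B had 562, 478 and 535 in *fer*, against 613, 644 and 591 in WT. As deposited, neither gene overlapped between genotypes, and neither was called, with log2 fold changes of 0.20 ± 0.08 for RPS5A and −0.23 ± 0.09 for RPS5B (limma, adjusted p = 0.10 for each). The sum of the pair did overlap, at 2431, 2278 and 2364 in *fer* and 2286, 2320 and 2050 in WT. Under median of ratios scaling the log2 fold changes were 0.09 for RPS5A and −0.34 for RPS5B, and only RPS5B was called (limma, adjusted p = 0.50 and 0.019). The genes of dividing cells are given above, and their part in the values of RPS5A was not tested.

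RPS6, the substrate of S6 kinase, had 2 genes with higher means in *fer*, of which 0 were called. RPS6B (AT5G10360) had 2264, 2513 and 2410 normalized reads in *fer*, against 2028, 2183 and 1980 in WT, and RPS6A (AT4G31700) had 1761, 1953 and 1861 in *fer*, against 1553, 1830 and 1721 in WT. The RPS6B libraries did not overlap while those of RPS6A did, and the log2 fold changes were 0.22 ± 0.08 and 0.13 ± 0.08 (limma, adjusted p = 0.062 and 0.32). Summed as deposited, the family gave 4254 ± 221 in *fer* and 3765 ± 223 in WT (SD, n = 3 each), 13.01% more in *fer*. Under median of ratios scaling the sum was 5.20% higher in *fer* and the genotypes overlapped. On that scale the log2 fold changes were 0.11 for RPS6B and 0.03 for RPS6A (limma, adjusted p = 0.37 and 0.88). Of the TOR and S6 kinase list of 5 genes only S6K2 was called, beside 14.6% of all genes. S6K2 rose, with 18.6, 37.8 and 28.8 normalized reads in *fer*, against 20.02, 5.05 and 9.34 in WT. Its lowest *fer* library lay under its highest WT library, and the log2 fold change was 1.37 ± 0.42 (limma, adjusted p = 0.033). The call was lost without WT column 2 or 3, without *fer* column 2 or 3, with a pseudocount of 0.1, under quantile scaling and in limma without the trend (limma, adjusted p = 0.05 to 0.18). S6K1, the more abundant kinase gene, had a log2 fold change of −0.17 ± 0.13 and TOR 0.24 ± 0.20, and neither was called.

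RPL3A and RPL19A, the most abundant large subunit genes, were not called. RPL3A (AT1G43170), the highest of the 56, encodes L3 near the peptidyl transferase centre, and it had 4222, 4637 and 4636 normalized reads in *fer*, against 4088, 4076 and 4171 in WT. The genotypes did not overlap, yet the log2 fold change was 0.13 ± 0.07 (limma, adjusted p = 0.26). RPL19A (AT1G02780), for L19 at the rim of the exit tunnel, had 3742, 4237 and 3888 in *fer*, against 3589, 3655 and 3581 in WT. RPL19B (AT3G16780), its minor paralog, had the lowest log2 fold change of all 56 genes, with 316, 284 and 294 in *fer*, against 368, 371 and 348 in WT. As deposited, neither overlapped and neither was called, with log2 fold changes of 0.13 ± 0.07 for RPL19A and −0.28 ± 0.10 for RPL19B (limma, adjusted p = 0.26 and 0.064). Under median of ratios scaling these were 0.03 and −0.38, and only RPL19B was called (limma, adjusted p = 0.85 and 0.012).

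For L4, whose protein reaches into the exit tunnel, RPL4A (AT3G09630) had 1505, 1560 and 1575 normalized reads in *fer*, against 1342, 1334 and 1422 in WT. RPL4D (AT5G02870) had 2170, 2117 and 2151 in *fer*, against 2291, 2531 and 2573 in WT. As for S5 and L19, each gene kept its genotypes apart and in opposite directions in the values as deposited. The log2 fold changes were 0.18 ± 0.07 and −0.20 ± 0.07 (limma, adjusted p = 0.12 and 0.081). Under median of ratios scaling they were 0.08 for RPL4A and −0.30 for RPL4D, and only RPL4D was called (limma, adjusted p = 0.57 and 0.0091). RPL23aA and RPL23aB, whose proteins form the docking site at the tunnel exit, had log2 fold changes of −0.17 and 0.10, and RPL8A and RPL8C, near the catalytic centre, of −0.07 and −0.06. The partners of the 5S RNA were not called either, with 0.08 for RPL5A, 0.15 for RPL5B and 0.32 for RPL11A. RPL11A (AT2G42740) was low, at 87.6, 88.8 and 112 normalized reads in *fer*, against 91.8, 70.4 and 68.3 in WT, with overlap. RPL21A (AT1G09590) had 516, 509 and 587 in *fer*, against 437, 489 and 427 in WT, a log2 fold change of 0.25 ± 0.10 (limma, adjusted p = 0.090), but 20.8% of the 50-base windows at its 3′ end also occur in RPL21C, so that reads of the 2 genes may be confused.

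Of the 18 genes chosen by the naming rule, all are given with their library values above. The other 38 had log2 fold changes of −0.20 for RPL4D to 0.22 for RPS6B, 15 under 0 and 23 over 0, and their lowest adjusted p in limma was that of RPS6B. RPL24B (AT3G53020), for a protein known in plants to help ribosomes reinitiate after upstream reading frames, had 1378, 1540 and 1448 in *fer*, against 1279, 1373 and 1253 in WT, without overlap (log2 fold change 0.16 ± 0.08). RPL27aC (AT1G70600), known from leaf shape mutants, had 2185, 2200 and 2065 in *fer*, against 2321, 2557 and 2445 in WT, also without overlap (−0.18 ± 0.07). Among the flattest were RPS16A, at 307 to 315 in both genotypes, RPS24A, RPS13A, RPS15A and RPS2C, all within 0.02 of 0.

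A ratio of paralogs within a library does not depend on how libraries are scaled. Among the 18 families with at least 2 of the 56 genes there were 26 pairs, and the ratio did not overlap between genotypes for 9 of them (34.6%), beside 40.3% of the 1514 pairs that join genes of different families. Genotypes were apart no more often within families than between them. The log2 ratio of RPS5A to RPS5B was 1.73, 1.91 and 1.77 in *fer*, against 1.45, 1.38 and 1.30 in WT. RPS5A took 76.9% to 79.0% of the reads of the pair in *fer* and 71.2% to 73.2% in WT. The log2 ratio of RPL19A to RPL19B was 3.56, 3.89 and 3.72 in *fer*, against 3.28, 3.30 and 3.36 in WT. That of RPL4A to RPL4D was −0.53, −0.44 and −0.45 in *fer*, against −0.77, −0.92 and −0.85 in WT. For these 3 pairs the first gene was relatively higher in *fer*, by 0.43, 0.41 and 0.38 on the log2 scale. RPS18A to RPS18C went the other way, with −0.99, −0.93 and −0.92 in *fer*, against −0.45, −0.54 and −0.67 in WT. The pairs RPP0B and RPP0C, RPL7B and RPL7D, RPL10A and RPL10C, RPL24A and RPL24B, and RPS24A and RPS24B were also apart, by −0.28, −0.27, −0.22, −0.14 and −0.09. With 3 libraries against 3, the exact two-sided permutation test cannot give a p under 0.10, the value of each of these pairs. The largest difference of all, −0.60 for RPS9B and RPS9C, overlapped between genotypes.

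**Figure D3:**
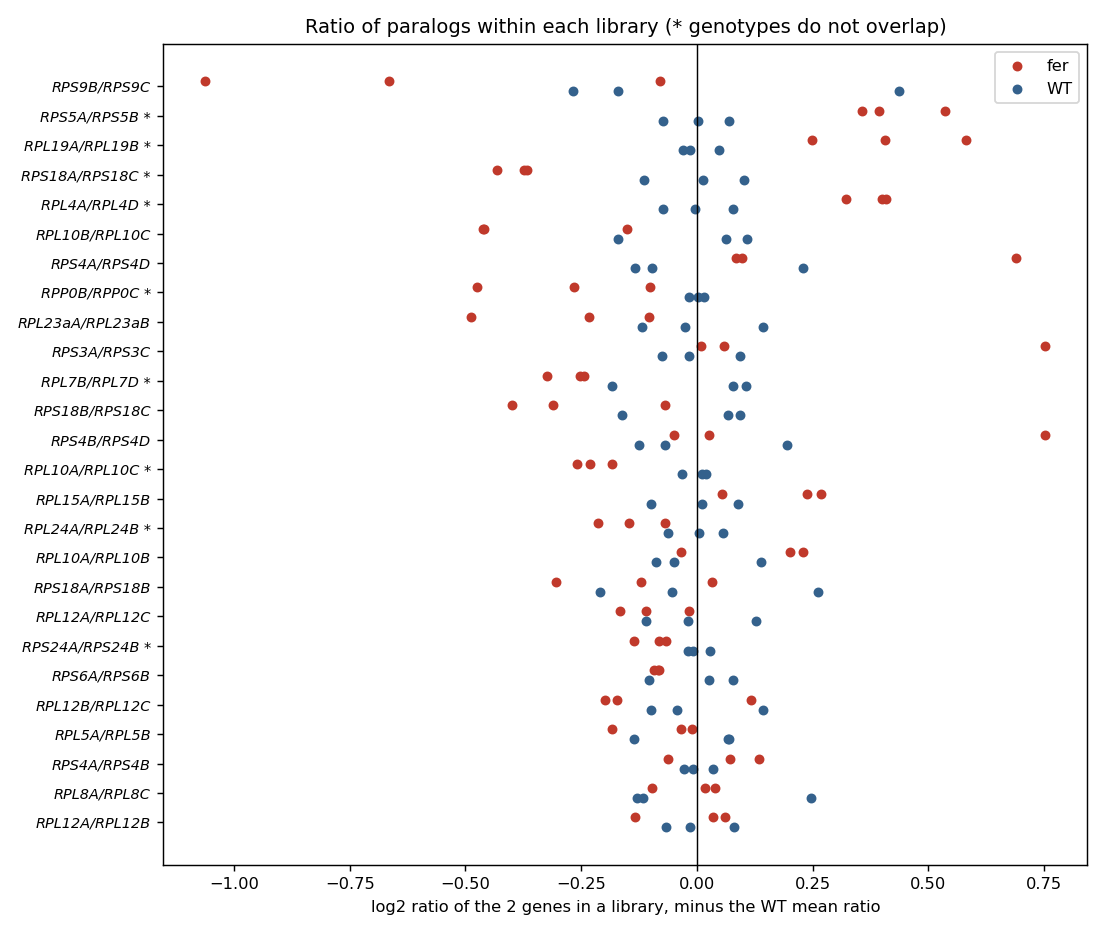
Log2 ratio of the 2 genes of each of the 26 paralog pairs in each library, less the WT mean of that pair (horizontal axis), with *fer* libraries in red above WT libraries in blue. The genotypes are apart in the 9 starred pairs, by 0.09 to 0.43 in size, and overlap in the other 17.

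Family sums, in which all paralogs in the table were added whether among the 56 or not, differed less between genotypes than the most divergent single genes. As deposited, the change of the mean sum over the 34 families ranged from −15.9% for P0 to 13.9% for L7, with a median of 3.03%, and 30 families stayed within 10%. The exceptions were P0, S9 (−13.9%), S6 (13.01%) and L7. Under median of ratios scaling the range was −21.7% for P0 to 6.04% for L7. On that scale S9 (−19.8%), S10, L27a, L23a, L8, L4 and S8 were also more than 10% lower in *fer*, and no family was more than 10% higher. As deposited, the sums did not overlap between genotypes for 8 of the 34 families as higher in *fer* and 3 as lower (P0, S9 and L27a). Of all genes, taken singly and not as sums, 20.8% were apart as higher and 10.5% as lower. Under median of ratios scaling the sums were apart for 1 family that was higher (L7) and 13 that were lower. On that scale 3164 (15.2%) of all 20754 genes were apart as higher and 3110 as lower. The L7 family, with RPL7A and RPL7C added, gave 3379 ± 80 in *fer* and 2967 ± 120 in WT, and the S9 family 2825 ± 105 in *fer* and 3280 ± 229 in WT (SD, n = 3 each).

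The 156 other cytosolic ribosomal protein genes gave like values. In *fer* 14 rose and 6 fell, 12.8% in all beside 14.6% of all genes, and the median log2 fold change was 0.05. RPL31A had the largest called change, with 916, 1023 and 1071 normalized reads in *fer*, against 668, 678 and 724 in WT (0.54 ± 0.09, adjusted p = 0.00019 in limma). RPL35aD (0.43) and RPL32B (0.39) also rose, and RPP3A (−0.42), described above, fell. Median of ratios scaling turned this split to 2 higher and 17 lower, beside 7.28% and 7.03% of all genes. Limma without the trend called 0 of the 156, with 12 at an unadjusted p under 0.05. The 20 calls went down to 11 without WT column 1, 7 without WT column 2 and 5 without *fer* column 3. In these fits 12.1%, 9.51% and 9.19% of all genes were called.

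**Figure D4:**
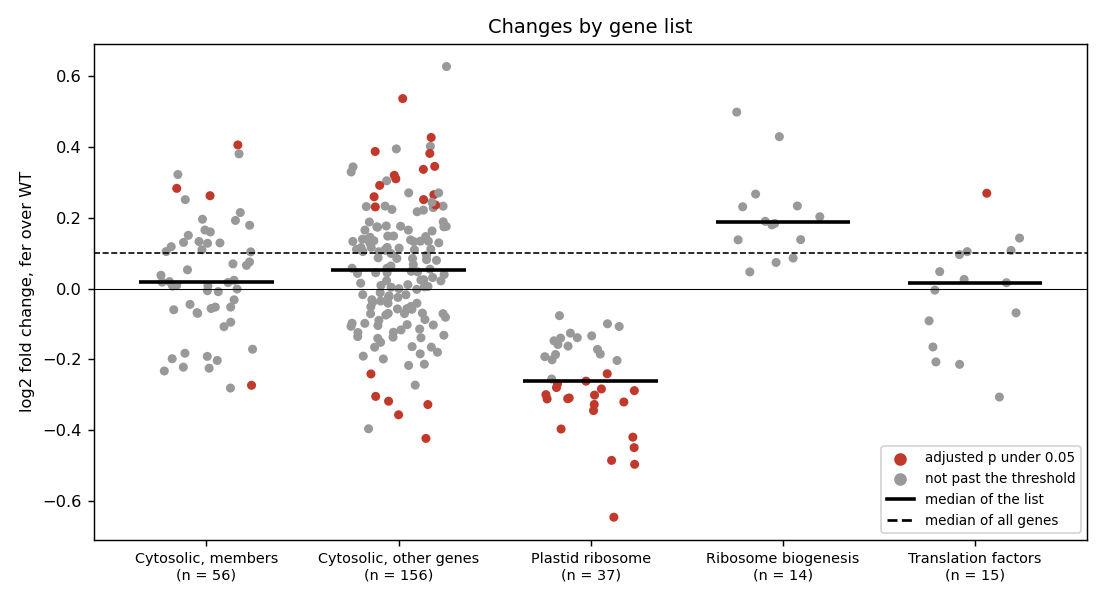
Log2 fold change of *fer* over WT (vertical axis) for each gene of 5 lists, with the list's median as a thick line and the median of all genes (0.10) dashed; red points passed an adjusted p of 0.05. The medians are 0.02 for the 56 genes, 0.05 for other cytosolic ribosomal protein genes, −0.26 for the plastid ribosome, 0.19 for ribosome biogenesis and 0.02 for translation factors.

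The plastid ribosome, which translates the chloroplast's own messages and whose nuclear genes were taken as the nearest comparison, gave lower values in *fer*. Of its 37 genes 20 were called lower and 0 higher in *fer*, beside 4.52% and 10.0% of all genes. All 37 had a log2 fold change under 0, beside 40.0% of all genes, and the median was −0.26. PSRP6 had 3164, 3383 and 3056 normalized reads in *fer*, against 4623, 4937 and 5493 in WT (−0.65 ± 0.08, adjusted p = 7.4e-06 in limma), and PRPL13 (−0.50), PRPL4 (−0.49) and PSRP2 (−0.45) also fell. The list took 0.971% to 1.06% of the reads in *fer*, against 1.198% to 1.24% in WT, with no overlap. The sums of the 56 cytosolic genes overlapped as deposited and, under median of ratios scaling, lay lower in every *fer* library than in every WT library (ratio 0.94). Without the variance trend 1 of the 37 was called, as lower, beside 1.07% of all genes called lower. The calls numbered 11 without WT column 2, 12 without WT column 3, 9 without *fer* column 1 and 9 without *fer* column 3. In these fits 2.59%, 3.30%, 3.33% and 2.99% of all genes were called lower. Under median of ratios scaling 32 of the 37 were called, beside 7.03% of all genes called lower. None of these calls was higher in *fer*. The leaf genes for Rubisco fell in the same libraries, and their part in this was not tested.

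Among 14 genes for ribosome assembly 0 were called, with 6 at an unadjusted p under 0.05, beside 14.6% and 27.1% of all genes. The log2 fold change was over 0 for 14 of 14, where 40.0% of all genes were under 0, and the median was 0.19. Under median of ratios scaling 3 were under 0, beside 10319 of all 20754 genes, and the median was 0.09. EBP1, a growth regulator known to be a partner of FER that also binds ribosomes, had 533, 567 and 595 normalized reads in *fer*, against 492, 504 and 487 in WT, without overlap, and a log2 fold change of 0.19 ± 0.09 (limma, adjusted p = 0.17). Among 15 translation factors 1 rose, PAB2, a poly(A) binding protein, with 1993, 2222 and 1989 in *fer*, against 1789, 1636 and 1717 in WT (0.27 ± 0.08, adjusted p = 0.022 in limma). The call of PAB2 was lost with median of ratios scaling and when WT column 2, *fer* column 2 or *fer* column 3 was left out (limma, adjusted p = 0.055 to 0.16). The median of that list was 0.02, and its 1 call among 15 genes stands beside 14.6% of all genes called. The elongation factor gene LOS1 was flat at 0.03, and the cap-binding eIF4E1, another known FER substrate, had a log2 fold change of −0.21 ± 0.15 and was not called.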

How the data were processed

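Rosette RNA of 3 *fer* and 3 WT samples was made into QuantSeq 3′ libraries and sequenced in 2 runs of 50-base single reads, which the authors merged. Per the labels and the study's methods, reads were aligned to TAIR10 with STAR and counted with HTSeq; strand use and versions are not given in the sources used here. The deposited values were treated as a signal: read numbers that the authors had normalized with TMM in edgeR and scaled to a common total, after a filter on low genes. A deposited column of log2 fold changes holds the authors' own comparison and was not used. Whole reads and original depth could not be recovered, so no count test was run and the depth of each library is unknown. Columns name the genotype but no replicate number, and "column 1" to "column 3" only name libraries.

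Values were tested as log2(value + 1), a scale that understates changes of low genes, with limma 3.58.1 in R 4.3.3 (eBayes with trend, two-sided, no covariate), with Benjamini-Hochberg adjustment over 20754 genes and a threshold of 0.05. The script was tested on simulated data. P-values measure the spread between libraries. The planned count tests (had the table held counts) did not apply. Members and lists were chosen with earlier results of these data known, and no list was tested as a set. Library values are given for called genes, the 6 largest and 6 smallest changes, the 3 highest and 3 lowest levels, and the 4 families whose paralogs differ most; genes given beyond these were chosen after their values were seen. Promoter windows and 50-base windows of the last 400 transcript bases came from RefSeq TAIR10.1. As alternatives, results were recomputed without each library in turn, with median of ratios or quantile scaling, without the trend, at an adjusted p under 0.01, with 0.1 added in place of 1, and for genes averaging 5 or more.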

Additional observations from a re-analysis of the deposited data

How the results depend on the processing

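The direction of the 4 called genes held under every alternative run, but the number of calls did not. Of the 56 genes, median of ratios scaling called 9 (1 higher, 8 lower), quantile scaling 5 (3 lower), a mean of at least 5 called 2 lower, limma without the trend 0 (0 higher, 0 lower; 2 at an unadjusted p under 0.05) and an adjusted p under 0.01 called 1 (1 higher, 0 lower). Over all genes, quantile scaling called 1353 higher and 1450 lower, median of ratios scaling 1459 lower, limma without the trend 1130 (908 higher, 222 lower) and an adjusted p under 0.01 called 1682 (1190 higher, 492 lower). The median of the 56 genes was −0.0832 under median of ratios scaling, with −0.0489 for the large and −0.0923 for the small subunit, and the large subunit gave −0.0090 under quantile scaling. Some alternatives were chosen after seeing the data. By these, the summed level of the 56 genes in *fer* over WT was 0.9400 under median of ratios scaling. On that scale the genotypes did not overlap for 3 higher and 17 lower genes of the 56. They did not overlap for 1 higher and 13 lower of the 34 family sums. Of all 20754 genes, 3164 were apart as higher and 3110 as lower on that scale. Leaving out each library in turn gave 0.9942 to 1.0271 for the summed level as deposited (also chosen after seeing the data), 1907 to 2503 calls over all genes (1287 to 1822 higher, 537 to 821 lower) and 0 to 5 among the 56 (0 to 3 higher, 0 to 2 lower), with medians of −0.0053 to 0.0464 for all 56, −0.0026 to 0.0960 for the large and −0.0079 to 0.0299 for the small subunit. Uncalled RPS18B turned to −0.0786 under median of ratios scaling, −0.0174 under quantile scaling, −0.0528 without WT column 1 and −0.0354 without *fer* column 2, and uncalled RPS3C to 0.0021 without *fer* column 2. Leaving out each library, RPS18B ranged from −0.0528 to 0.0732 and RPS3C from −0.3114 to 0.0021. The cause of these shifts was not tested. No paired analysis was possible because replicate numbers are missing from the column names. edgeR and DESeq2 count tests were not run, since whole reads could not be recovered. How far shared reads of near-identical paralogs, or of genes that overlap at their 3′ ends, moved single genes was not tested.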
